A study of Aconitum carmichaelii with 4 samples.

Results

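The 160 leaf-dominant unigenes are assembled transcripts of Aconitum carmichaelii whose TPM (a transcript level per effective length, scaled to the same total in every library) in the leaf library made up at least 90% of the TPM summed over the leaf, flower, bud and root libraries. A unigene also had to be over 500 bases long and to hold at least 100 fragments (read pairs) of the leaf library. Of 128183 unigenes in the assembly, 7228 met the length and fragment limits, and 160 of these, or 2.21%, met the leaf share. Since leaf TPM chose the set, the height of its leaf values is a description and not a finding.

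A. carmichaelii is a medicinal herb of the buttercup family that makes aconitine-type diterpene alkaloids. The 4 libraries, 1 each of leaf, flower, bud and root, came from 3-year-old plants of 1 registered plant material grown outdoors without treatment. The number of plants behind each library is not stated. With 1 library per tissue, no difference between tissues has a replicate check, and the exact 95% intervals below cover counting error only. The libraries held 4811266 fragments in root to 7057551 in flower, with 5400853 in leaf.

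A leaf is built mainly of photosynthetic cells, covered by an epidermis that seals and defends the surface and crossed by veins that move water, sugars and metal ions. Its transcripts therefore include photosynthesis genes, genes of the cuticle and of defence, and genes for storing and moving metals. In whole-tissue RNA, fewer cells of a type and less RNA per cell cannot be told apart.

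The tissue labels were checked on unigenes with a description in the study's supplementary tables. All 7 unigenes described as a photosystem II or a rubisco-binding subunit had their highest TPM in leaf, summing to 389.5 TPM in leaf, against 151 in flower, 178 in bud and 86.5 in root. None of the 7 was leaf-dominant. They are not 7 separate checks, since several are isoforms of 1 Trinity gene, TR37670|c3_g1. The largest, TR38483|c0_g1_i1, had 149 TPM in leaf, close to 134 in bud. The 2 photosystem II unigenes had 9.82 and 5.92 TPM in leaf, from 26 and 12 leaf fragments. The leaf sum thus lay almost wholly in the rubisco-binding subunits. The second of the 2, photosystem II K, also had 8 root fragments. The 3 root markers of diterpene synthesis (CDPS4, KS1 and KS2), which the study chose with its own values in view, were all highest in root. Of 4 unigenes described as or matched to MADS-box proteins, 2 were highest in leaf, 1 in bud and 1 in root. The 2 highest in leaf are isoforms of 1 Trinity gene, TR39420|c0_g1. The bud call, for TR11749|c0_g1_i1, rested on 2 bud and 1 flower fragments. The flower and bud labels thus had no positive check. A further 2 unigenes described as FUL 2, whose best match does not carry the word MADS, were also highest in leaf.

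Leaf shares of the 160 unigenes ran from 90.03% to 99.85%, with a median of 94.1%, beside a median of 29.7% over the 7228. The share lay under 92% for 42 unigenes, between 92% and 95% for 50, between 95% and 98% for 50, and at 98% or more for 18. The set has no gap at its lower edge, where a further 89 unigenes had shares of 85% to 90%. Just inside stood TR45469|c0_g4_i1 at 90.10%, TR35071|c0_g1_i1 at 90.08% and TR42133|c4_g2_i3 at 90.03%. Just outside stood TR44914|c0_g1_i2 at 89.99%, TR34284|c0_g1_i1 at 89.95% and TR43760|c2_g1_i1 at 89.89%. The counting interval of the share lay wholly above 90% for 114 of the 160, and the interval of 44 other unigenes reached 90%.

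**Figure D1:**
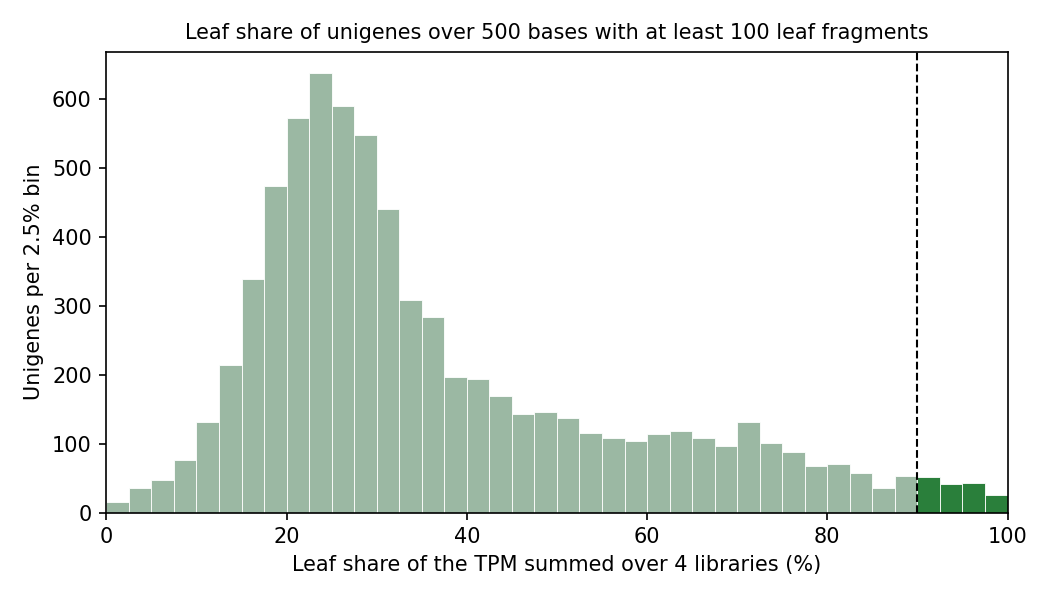
Leaf share of the summed TPM (horizontal axis, percent) for the 7228 unigenes over 500 bases with at least 100 leaf fragments, counted in bins of 2.5% (vertical axis). The dashed line marks 90%, and the 160 leaf-dominant unigenes are the dark bars to its right, which continue the tail of the distribution without a gap.

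The 160 unigenes were shorter than the unigenes they were drawn from, with a median length of 1201 bases (range 502 to 2830) beside 1587 bases over the 7228. This was not particular to leaf, since the same rule gave medians of 1186 bases in flower, 1190 in bud and 971 in root. The median leaf level of the 160 was 64.7 TPM (range 9.90 to 4869.5), beside 27.5 TPM over the 7228. Together they held 209740 leaf fragments, or 3.88% of the leaf library, against 0.120% of the flower, 0.193% of the bud and 0.0192% of the root library. With FPKM in place of TPM this share of the leaf library was 1.96%, since 115 unigenes then met the rule, all of them among the 160. A few unigenes carried most of the set, since 10 of the 160 held 63.5% of its leaf fragments and 1 held 12.6%. The most abundant unigene of the leaf library, TR43559|c0_g1_i1 with 15.6% of its fragments, had a leaf share of 77.8% and was not leaf-dominant.

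Metallothioneins, small cysteine-rich proteins that bind metal ions such as copper and zinc, gave the highest leaf-dominant levels. TR36151|c1_g1_i4, matched to a type 3 metallothionein of Typha angustifolia, had 4869.5 TPM in leaf, against 82.2 in flower, 106 in bud and 0 in root. TR36151|c1_g1_i3, an isoform of the same Trinity gene with the same best match, had 4197 TPM in leaf, against 72.9 in flower, 94.1 in bud and 0 in root. Both stood far above every other tissue and ranked the 7th and the 8th among all unigenes by leaf TPM.

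Leaf exceeded bud, the next tissue, by 45.9-fold for TR36151|c1_g1_i4 (95% interval 41.4 to 51.0) and by 44.6-fold for TR36151|c1_g1_i3 (40.1 to 49.8). These rest on 10865 leaf and 376 bud fragments for the first, and on 9865 leaf and 351 bud fragments for the second. Root held no fragment of either. Read against a floor of 3 root fragments, leaf was at least 3756-fold and at least 3412-fold higher than root, as the fragments were assigned. Summed over its 4 isoforms, the gene TR36151|c1_g1 had 10934 TPM in leaf, against 900.1 in flower, 421 in bud and 530.3 in root, from 234 root fragments. Its leaf share was 85.5%, under the limit, so that the absence from root holds for these 2 isoforms and not for their gene.

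Most other metallothionein unigenes did not share this pattern, and 5 of the other 7 were highest in root by TPM. Of the 9 unigenes with this description in the tables at hand, which the study placed in one orthologous group, these are the only 2 leaf-dominant ones, and 6 of the other 7 were 500 bases or shorter. TR36151|c0_g2_i1, 307 bases long, had 6694 TPM in leaf, against 3728 in flower, 327 in bud and 7689 in root. TR36151|c1_g4_i1, 425 bases long, had 879 TPM in leaf, against 953 in flower, 617 in bud and 2880.5 in root. TR36151|c0_g4_i2, 589 bases long, had 239 TPM in leaf, against 812 in flower, 117 in bud and 971 in root, a leaf share of 11.2%. Root, where these 3 were highest, held no fragment of the leaf-dominant isoforms.

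The short isoforms of the Trinity gene that holds both leaf-dominant metallothioneins differed between each other. TR36151|c1_g1_i1, 308 bases long, had 1639.8 TPM in leaf, against 189.6 in flower, 185 in bud and 8.05 in root. TR36151|c1_g1_i2, 234 bases long and without a description, had 228 TPM in leaf, against 555 in flower, 35.6 in bud and 522 in root. The first was thus highest in leaf and the second in flower, with root close behind. By the deposited isoform percentages, the 2 leaf-dominant isoforms took 44.53% and 38.38% of the gene in leaf, against 9.14% and 8.09% in flower, 25.22% and 22.34% in bud and 0% in root.

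Summed over the 9 described unigenes and TR36151|c1_g1_i2, metallothionein TPM was 19728 in leaf, against 7152 in flower, 1889 in bud and 14202 in root. The 2 leaf-dominant isoforms made up 46.0% of this sum in leaf, against 2.17% in flower, 10.6% in bud and 0% in root. TR36151|c0_g2_i1 was the largest single contributor in both leaf and root, while the leaf-dominant isoforms contributed in leaf and not in root. The study estimated abundance with RSEM, and how certain its division of fragments among these similar sequences is cannot be read from the values. This leaves the values of unigenes from one component uncertain relative to each other.

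**Figure D2:**
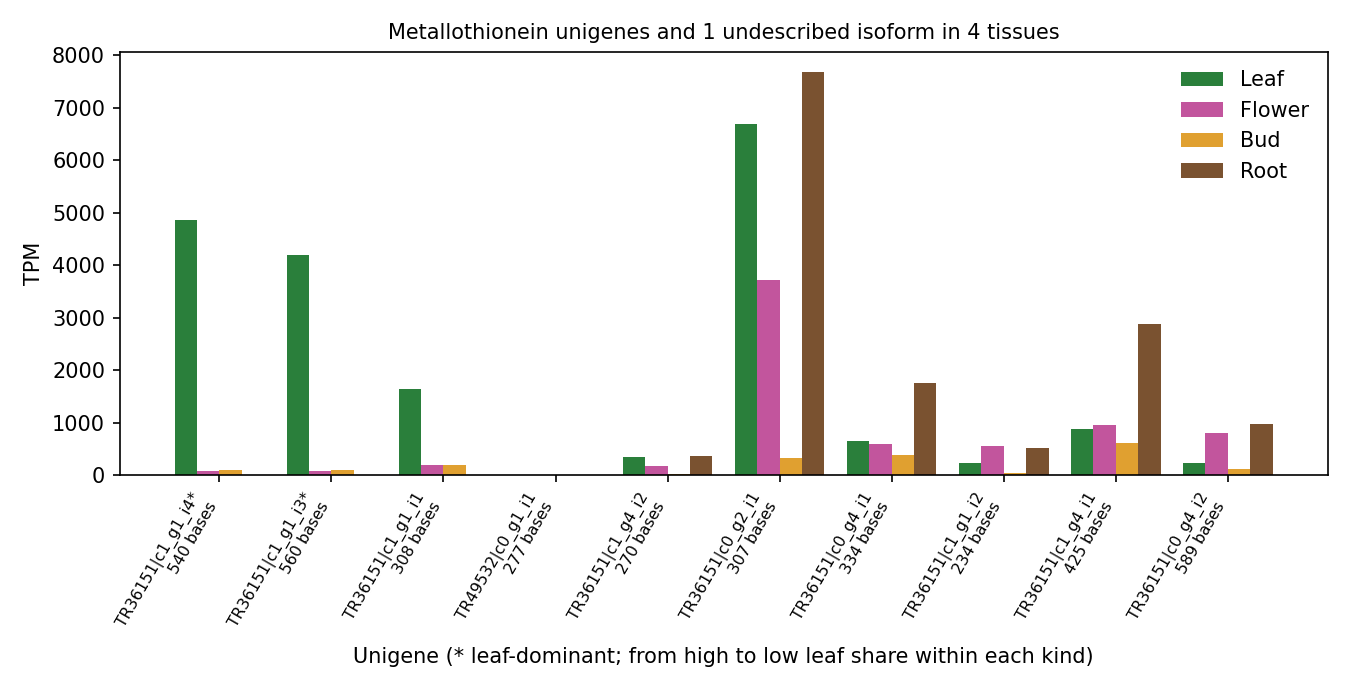
TPM in leaf, flower, bud and root (bars, vertical axis) for the 9 unigenes described as metallothionein and the undescribed isoform TR36151|c1_g1_i2 (horizontal axis, with lengths in bases; asterisks mark the leaf-dominant ones). The leaf bars of the 2 leaf-dominant isoforms reach 4869.5 and 4197 TPM beside a root value of 0, while TR36151|c0_g2_i1 reaches 7689 TPM in root.

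The only other leaf-dominant unigene with a description in the tables at hand was TR36232|c0_g1_i3, matched to a conserved hypothetical protein of Ricinus communis. It had 121 TPM in leaf, against 6.98 in flower, 0.80 in bud and 2.75 in root, a leaf share of 91.99% from 380 leaf fragments. Its shorter isoform TR36232|c0_g1_i6, of 427 bases, had 84.7 TPM in leaf, against 4.10 in flower, 0 in bud and 1.87 in root. Flower came after leaf for both.

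The tables at hand hold only part of the annotation. They describe 2478 unigenes, 205 of the 7228 and 3 of the 160, so that 157 leaf-dominant unigenes are known here by their identifiers alone. Grouped by words in the descriptions, none of the 6 described photosynthesis and plastid unigenes within the length and fragment limits was leaf-dominant, and their highest leaf share was 70.2%. None of 22 defence and stress unigenes (highest share 69.7%), 16 transport unigenes (87.8%), 8 unigenes of specialised metabolism (83.7%) or 17 kinases and receptors (53.1%) was leaf-dominant. Beside 2.21% over the 7228, counts of 0 in groups this small do not set them apart. Of 3 metal-binding unigenes, all metallothioneins, 2 were leaf-dominant. These 2 are isoforms of 1 Trinity gene, TR36151|c1_g1, whose summed leaf share of 85.5% is under the limit. The count is therefore no sign of a metal-binding group.

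None of the 52 unigenes that the study assigned to the terpenoid precursor and diterpene pathways was leaf-dominant. The same held for its 21 cytochrome P450 unigenes, whose highest leaf share was 34.2%. The study had picked those 21 for high expression in root, so that their absence was fixed by the choice and is no observation. The nearest of the 52 were 3 unigenes of copalyl diphosphate synthase, the enzyme that starts diterpene cyclisation. CDPS1 had 4.32 TPM in leaf, against 0.50 in flower, 0.18 in bud and 0 in root, a share of 86.4% from 15 leaf fragments. CDPS2 had 24.03 TPM in leaf, against 0.83 in flower, 4.67 in bud and 0 in root, a share of 81.4% from 84 leaf fragments. CDPS3 had a share of 62.8%. All 3 fell under the 100-fragment limit. Only 16 of the 52 were within the limits, where 2.21% of all unigenes were leaf-dominant, so that a count of 0 is no departure from the background. The highest leaf share among these 16 was 51.1%, for ISPF, an enzyme of the plastid MEP pathway.

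Among the undescribed unigenes, TR36313|c0_g1_i1 combined a high level with a share near the top of the set. This unigene of 2010 bases, the only one of its Trinity gene, had 2189 TPM in leaf, against 1.99 in flower, 14.3 in bud and 0.09 in root. The fragments behind these levels were 24077 in leaf, 38 in flower, 252 in bud and 1 in root. Its leaf share was 99.3%, and leaf exceeded bud by 153-fold (95% interval 135 to 173) and flower by 1100-fold (801 to 1555).

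TR41025|c4_g4_i2, of 833 bases, was similar, with 1704 TPM in leaf, against 1.89 in flower, 7.58 in bud and 0 in root. Leaf exceeded bud by 225-fold (169 to 305). The other 2 isoforms of its gene had lower leaf shares. TR41025|c4_g4_i1 had 1785 TPM in leaf, against 106 in flower, 122 in bud and 181 in root, a share of 81.4%, and TR41025|c4_g4_i3 had a share of 89.6%. TR41025|c4_g4_i2 thus took 38.01% of its gene in leaf, against 1.31% in flower, 4.80% in bud and 0% in root.

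A second group of abundant unigenes had shares close to 90% and clear levels in bud and flower. TR39120|c3_g2_i1 held the most leaf fragments of the set (26452) and had 2708 TPM in leaf, against 71.8 in flower, 181 in bud and 19.4 in root. Its isoform TR39120|c3_g2_i3 had 1568 TPM in leaf, against 57.3 in flower, 93.4 in bud and 7.87 in root. A further isoform over 1000 bases, TR39120|c3_g2_i6, missed the limit with a share of 89.2%. The whole Trinity gene summed to 9898 TPM in leaf, against 410.4 in flower, 617 in bud and 32.9 in root, a share of 90.3%.

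TR40100|c0_g1_i1 had 1679 TPM in leaf, against 52.04 in flower, 89.0 in bud and 8.38 in root. TR37617|c0_g2_i2 had 1049 TPM in leaf, against 29.99 in flower, 77.2 in bud and 0 in root. TR40415|c0_g1_i1 had 890.4 TPM in leaf, against 31.1 in flower, 52.8 in bud and 0.38 in root. In all 3 the order was leaf, bud, flower and root, and the ratio of leaf to bud was 18.9, 13.6 and 16.9. The 3 shares, at 91.8%, 90.7% and 91.4%, lay within 2 points of the limit.

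In a smaller number of the abundant unigenes flower came after leaf. TR40739|c0_g1_i1 had 745 TPM in leaf, against 52.7 in flower, 19.2 in bud and 4.16 in root, and its flower value exceeded that of bud beyond counting error. TR39990|c0_g1_i1 had 858 TPM in leaf, against 37.9 in flower, 35.5 in bud and 0.95 in root. TR34676|c0_g1_i1 had 237 TPM in leaf, against 10.5 in flower, 10.4 in bud and 0 in root. For the last 2, flower and bud did not differ beyond counting error.

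Root came after leaf for 2 of the 20 unigenes with the highest leaf TPM. TR36180|c1_g2_i1 had 349 TPM in leaf, against 0.87 in flower, 1.22 in bud and 5.57 in root, and leaf exceeded root by 62.6-fold (42.9 to 95.3). TR34134|c0_g1_i2 had 237 TPM in leaf, against 3.80 in flower, 2.69 in bud and 5.13 in root. Root was ahead of the other tissues beyond counting error for the first but not for the second. The isoform TR36180|c1_g2_i4 behaved differently, with 50.5 TPM in leaf, against 17.4 in flower, 1.55 in bud and 1.58 in root.

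The remaining unigenes of the highest 20 had shares of 90.25% (TR41387|c2_g7_i2) to 99.64% (TR25764|c0_g1_i1). TR38523|c1_g1_i1 and TR38523|c1_g1_i3, the only isoforms of their gene, had 666 and 585 TPM in leaf, against 5.19 and 5.28 in flower, 20.6 and 15.5 in bud and 0 in root for both. TR42454|c0_g12_i2 had 407 TPM in leaf, against 7.10 in flower, 24.5 in bud and 4.89 in root. TR41387|c2_g7_i2 had 318 TPM in leaf, against 9.31 in flower, 22.4 in bud and 2.67 in root. Bud followed leaf in these 4. TR25764|c0_g1_i1 had 234 TPM in leaf, against 0.40 in flower, 0.44 in bud and 0 in root, from 668 leaf fragments and 4 others. TR40343|c2_g2_i1 had 233 TPM in leaf, against 7.01 in flower, 8.47 in bud and 0.81 in root. Flower and bud could not be separated for the last 2.

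**Figure D3:**
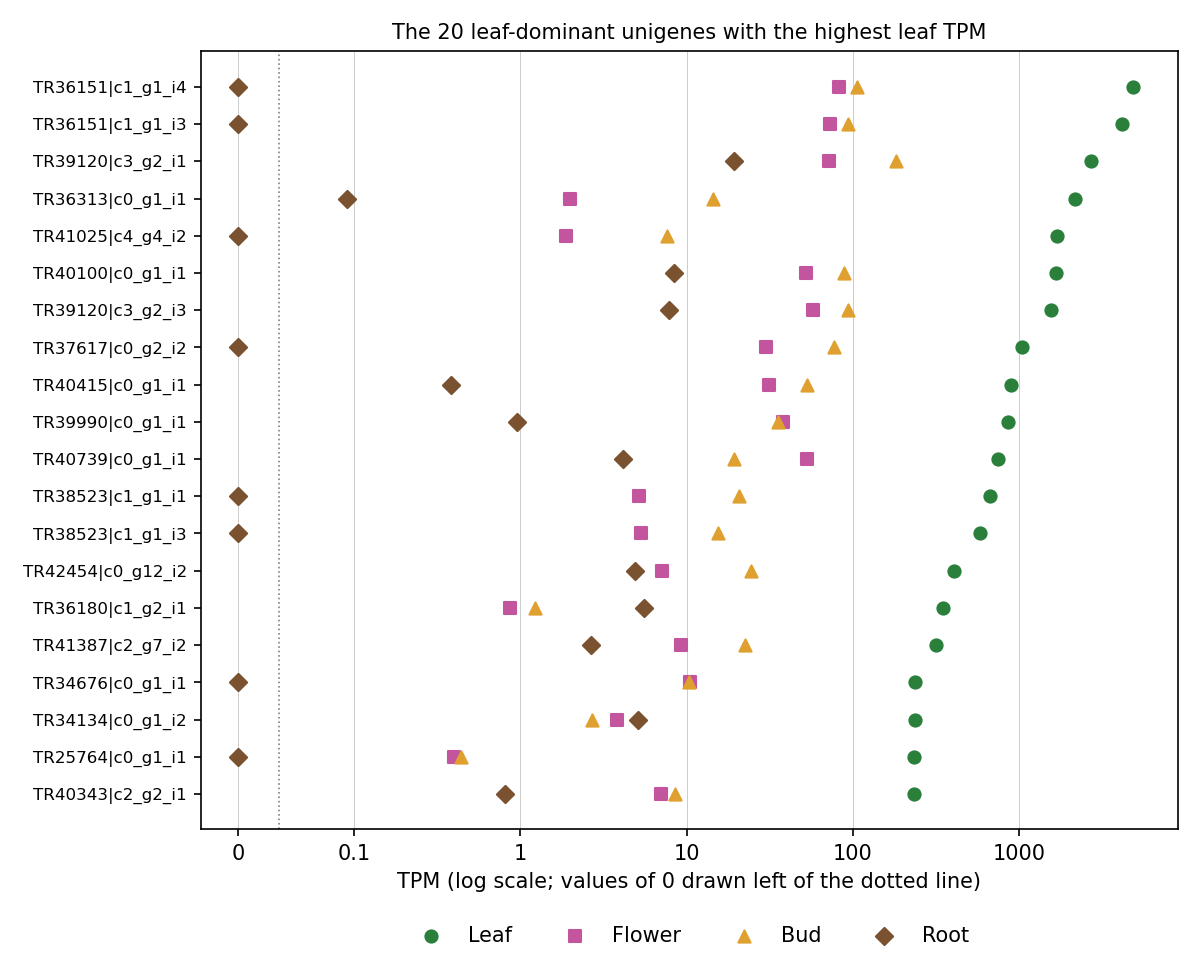
TPM on a log axis in leaf (circles), flower (squares), bud (triangles) and root (diamonds) for the 20 leaf-dominant unigenes with the highest leaf TPM, ordered downwards from 4869.5 to 233 TPM. Values of 0 stand left of the dotted line, where 8 of the 20 root values lie, and bud is the nearest tissue to leaf in 15 of the 20.

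Every one of the 160 unigenes had a leaf TPM at least 10-fold that of flower, of bud and of root, which the rule itself makes likely. Over the 7228 unigenes, 6.35% passed this fold over flower, 7.15% over bud and 18.8% over root. The median ratio of leaf to flower was 58.0 over the 152 unigenes with flower fragments. It was 35.4 for bud over 157 unigenes and 140.0 for root over 85. Root was thus the tissue with the least of these transcripts, and bud the one with the most.

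Bud was the next tissue after leaf for 93 of the 160 unigenes (58.1%), flower for 49 (30.6%) and root for 18 (11.2%). Over the 7228 unigenes, the highest of the 3 other tissues was bud for 33.6%, flower for 34.3% and root for 32.2%. Among the 1507 unigenes with a leaf share of 50% to 90%, which are nearer to the leaf-dominant ones, it was bud for 45.2%, flower for 40.9% and root for 13.9%. The rule used only the sum of the 3 other tissues, and its limit on leaf share did not set which of them came next. Many calls rest on few fragments, and the next tissue exceeded the one after it beyond counting error for 59 unigenes with bud, 16 with flower and 6 with root. Pooled over the 160, the TPM outside leaf was 57.2% in bud, 36.6% in flower and 6.26% in root. Isoforms of one gene are counted separately here, and with sums over Trinity genes bud was next for 50% of 120 leaf-dominant genes and flower for 35.8%.

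**Figure D4:**
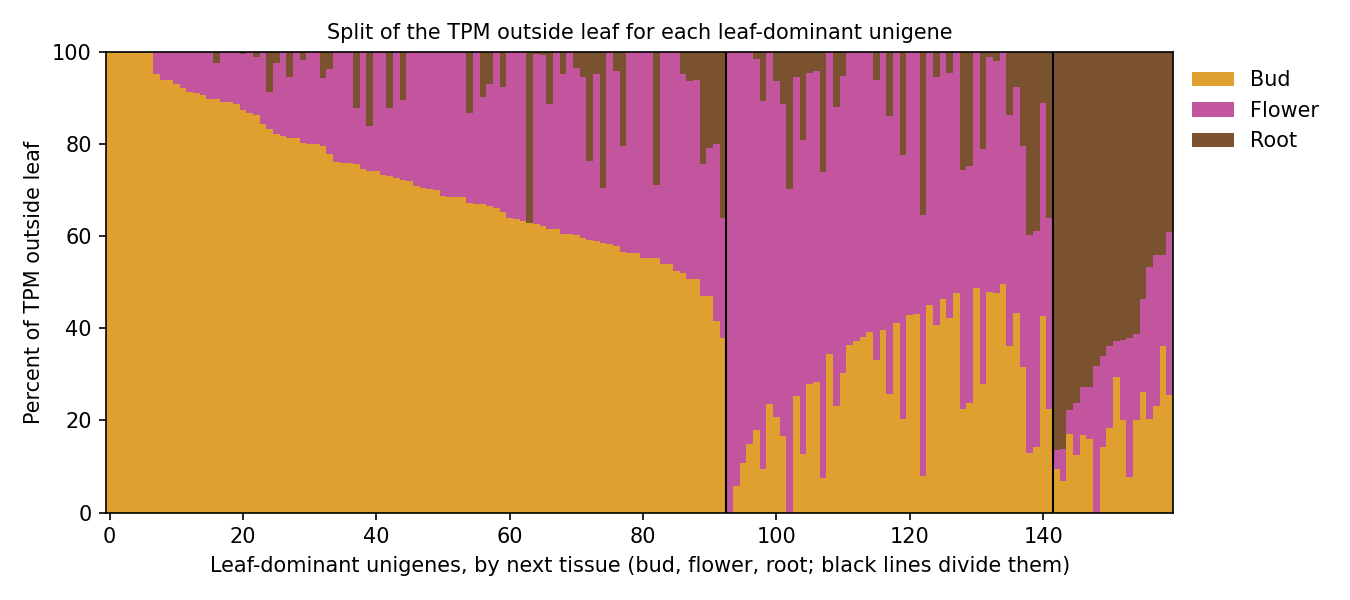
Percent of the TPM outside leaf that lay in bud, flower and root (stacked colours, vertical axis) for each of the 160 leaf-dominant unigenes (horizontal axis). Black lines divide the 93 with bud as next tissue, the 49 with flower and the 18 with root, and the bud colour covers the widest area.

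The 93 unigenes with bud, 49 with flower and 18 with root as next tissue are described by their medians, and no difference in level was tested. Their median leaf TPM was 71.3 with bud, 52.2 with flower and 43.5 with root, and their highest leaf TPM was 4869.5, 858 and 349. Median leaf shares were 94.3%, 92.9% and 95.3%, in the same order. Bud held over 90% of the TPM outside leaf for 15 unigenes, flower for 2 and root for none.

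Root fragments were missing altogether for 75 of the 160 unigenes, flower fragments for 8 and bud fragments for 3. A count of 0 was found in root for 3.54% of the 7228 unigenes, in flower for 0.166% and in bud for 0.125%. A low value outside leaf is part of the rule, so that these counts are a description. None of the 160 was free of fragments in all 3 other libraries, and the number of fragments outside leaf ran from 1 to 4245, with a median of 30. In the whole assembly 2176 unigenes had fragments in leaf only. Just 64 of them were over 500 bases, and none had more than 94 leaf fragments, which kept all of them under the limit of 100.

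The 8 unigenes with 0 fragments in 2 of the 3 other libraries, named here after their values were seen, included TR45235|c0_g1_i1, with 262 leaf fragments against 1 in flower and 0 in bud and root. TR37021|c0_g1_i1 had 114 leaf fragments, against 1 in bud and 0 in flower and root. TR42407|c0_g2_i1 had 496 leaf fragments, against 12 in bud and 0 in flower and root. In 7 of the 8, the fragments outside leaf were all in bud. The highest share of the set, 99.85%, belonged to TR44645|c0_g1_i2, with 791 leaf fragments against 1 in flower, 1 in bud and 0 in root. Its isoform TR44645|c0_g1_i4, also leaf-dominant, had 307 leaf fragments, against 3 in flower, 10 in bud and 14 in root.

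The 160 unigenes belong to 136 Trinity genes, and 78 of these genes hold a single unigene. A Trinity gene is the assembler's group of related transcripts, and its isoforms share sequence and fragments. Of the 136, 114 had 1 leaf-dominant unigene, 20 had 2 and 2 had 3. For the 78 genes with a single unigene the gene sum is the member itself. Of the 58 genes with several unigenes, the leaf share summed over all of them was 90% or more for 35 and lower for 23, down to 72.5% for TR46247|c0_g4, named after its value was seen.

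In both genes with 3 leaf-dominant unigenes, those 3 had low levels outside leaf beside their leaf level, which the rule requires. In TR41981|c1_g4 all 3 unigenes were leaf-dominant, with 60.7, 50.3 and 48.1 TPM in leaf, against 0, 0.23 and 0 in flower, 1.17, 0.99 and 1.5 in bud and 0 in root (isoforms i4, i2 and i5). In TR38320|c0_g3 the leaf-dominant isoforms i1, i10 and i6 had 140.3, 95.05 and 58.2 TPM in leaf, against 1.78, 1.63 and 0.54 in flower, 0.55, 2.36 and 0.98 in bud and 0, 2.26 and 1.20 in root. Another isoform of this gene over 500 bases with over 100 leaf fragments, TR38320|c0_g3_i4, had 36.7 TPM in leaf, against 6.17 in flower, 3.05 in bud and 2.33 in root, a share of 76.1%. Summed over its 6 isoforms, TR38320|c0_g3 had 561.7 TPM in leaf, against 14.58 in flower, 11.25 in bud and 6.85 in root. The leaf-dominant isoforms made up 52.3% of the leaf sum, 27.1% of the flower sum, 34.6% of the bud sum and 50.5% of the root sum. Isoform i2, of 420 bases, had 191.3 TPM in leaf and a share of 95.7%, and missed the length limit. Isoform i3 had a share of 97.1% and missed the fragment limit with 92 leaf fragments.

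The 58 genes with several unigenes held 82 leaf-dominant unigenes and 104 others. Of the 104, 40 were 500 bases or shorter, 44 were longer but had under 100 leaf fragments, and 20 met both limits with leaf shares of 71.2% to 89.9%. Among the 31 with at least 100 fragments over the 4 libraries, the median leaf share was 87.4%, and 23 had 80% or more. The 20 within both limits were measured by the rule and fell under 90%, while the others were not eligible. Isoforms of one gene share sequence, and these values are not independent of those of the leaf-dominant unigenes.

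Just 2 of the 31 had leaf shares under 50%. The first is the metallothionein isoform TR36151|c1_g1_i2, with 17.0%. The second is TR35602|c0_g1_i7, named after its values were seen, with 4.55 TPM in leaf, against 19.1 in flower, 3.16 in bud and 0 in root. The 2 leaf-dominant isoforms of that gene, TR35602|c0_g1_i1 and TR35602|c0_g1_i5, had 71.3 and 66.5 TPM in leaf, against 1.06 and 1.30 in flower, 2.61 and 1.89 in bud and 0.94 and 0.84 in root.

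**Figure D5:**
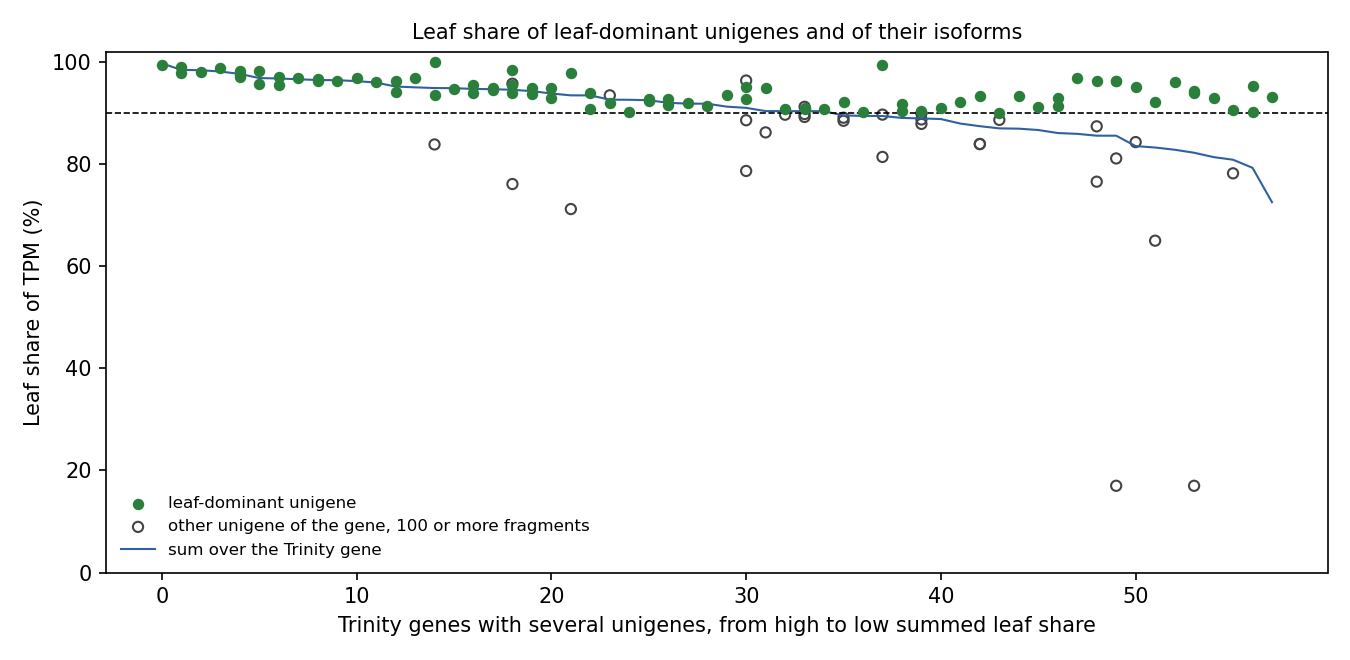
Leaf share of TPM (vertical axis, percent) for the unigenes of the 58 Trinity genes with several unigenes, ordered along the horizontal axis from high to low summed share (line). Filled points are the 82 leaf-dominant unigenes and open points the 31 other unigenes with at least 100 fragments, of which 2 lie near 17.0%, while the dashed line marks 90%.

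The same rule applied to each other tissue gave 178 flower-dominant (1.71% of 10393 within the limits), 244 bud-dominant (2.37% of 10302) and 126 root-dominant unigenes (2.19% of 5758). The leaf-dominant unigenes held 3.88% of their own library, against 3.50% for the flower-dominant, 8.16% for the bud-dominant and 14.8% for the root-dominant ones. The 10 most abundant held 63.5% of the fragments of the leaf-dominant set, against 32.4% in flower, 43.5% in bud and 80.4% in root. A single unigene held 42.0% of the root-dominant fragments. A share of 99% or more was reached by 8 of the 160 leaf-dominant unigenes (5%), against 24.7% of the flower-dominant, 50.8% of the bud-dominant and 19.0% of the root-dominant ones. None of the leaf-dominant unigenes had 0 fragments in all other libraries, against 10 of the flower-dominant, 74 of the bud-dominant and 8 of the root-dominant ones. Missing root fragments were not particular to the leaf-dominant unigenes (75 of 160), since 94 of the 178 flower-dominant and 167 of the 244 bud-dominant ones had none. The median level in the home tissue was 64.7 TPM for leaf, against 59.1 for flower, 46.8 for bud and 62.3 for root. Bud, the commonest next tissue of the leaf-dominant unigenes, was also that of the flower-dominant (111 of 178) and root-dominant ones (49 of 126). The library totals differ, which moves how often a count of 0 is met, and no test was made on 1 library per tissue.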

How the data were processed

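One library each of leaf, flower, bud and root was compared. The authors trimmed the reads with Trimmomatic, assembled all tissues together with Trinity, removed redundancy with CD-HIT-EST, aligned with Bowtie 2 and estimated abundance with RSEM. Versions of RSEM and Trimmomatic are not stated. The deposited expected counts are unnormalized fragments per unigene, and here they are whole numbers. The deposited TPM values sum to the same total in each library, the deposited FPKM values are relative to mapped fragments, and the deposited isoform percent gives how much of a Trinity gene one unigene takes. A joint FPKM table of the authors equalled the library tables. No genome was used.

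Members were found by length over 500, at least 100 leaf fragments and at least 90% leaf share of TPM. The members and lists were chosen with earlier results of these data known. Intervals are exact 95% (Clopper-Pearson for shares, conditional binomial for ratios) and cover counting error only. Where a library had no fragment, a floor of 3 was used. Interval bounds of a leaf share come from the leaf fragments among all fragments of the unigene, converted to TPM. Descriptions come from the study's supplementary tables, which were at hand in part. No p-value was computed.

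Named are the 20 members with the highest leaf TPM, described members, members of the study's pathway and P450 lists, 3 unigenes each side of the limit, members with no fragment elsewhere (up to 10), and genes with 3 or more members (up to 5). Isoforms of these, other metallothioneins, non-members set beside them and all others were named after their values were seen. Alternatives were FPKM, TMM factors, DESeq2 size factors, other limits, thinning to the smallest library and sums over Trinity genes. The rule was tested on simulated data. Factors were computed with edgeR 4.0.16 and DESeq2 1.42.0 (R 4.3.3), and all else with Python 3.11.15, using scipy 1.17.1 and numpy 2.4.6, pandas 2.3.3 and matplotlib 3.10.9.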

Additional observations from a re-analysis of the deposited data

How the results depend on the processing

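The number of leaf-dominant unigenes was 160. It was 377 at a share of 80%, 68 at 95%, 395 with no leaf fragment minimum and 99 with a length over 1000 bases. The other 8 alternatives gave 115 to 221, within 1.5 times of 160. One of them, sums over Trinity genes, counted 120 genes and not unigenes, and the 160 unigenes belong to 136 genes. With TMM factors 165 unigenes met the rule and 155 of them were among the 160, with DESeq2 size factors 164 and 154, and thinning to 4811266 fragments per library kept 146 to 153 of the 160 in 20 draws. The share of leaf fragments held by the set, 3.88%, was 1.96% with FPKM, 4.18% with TMM factors, 4.18% with DESeq2 size factors, 12.1% at a share of 80%, 1.57% at 95%, 3.96% with at least 50 leaf fragments, 3.77% with at least 200, 4.04% with no minimum, 4.28% with no minimum length, 2.98% over 1000 bases, 3.93% after thinning and 3.85% with sums over Trinity genes. Flower was next for 30.6%, which was 23.5% at a share of 95% and 40.5% with no leaf fragment minimum. The share with no fragment outside leaf, 0%, was 2.71% with at least 50 leaf fragments and 16.2% with no minimum. Bud as next tissue (58.1%), followed after seeing the data, was 47.1% with no leaf fragment minimum and 50% with sums over Trinity genes. FPKM kept 10 of the 20 most abundant members at 90% or more, with 87.7% the lowest, and both metallothionein isoforms stayed at 95.15% and 95.02%; TMM and DESeq2 factors kept all 20. Added after seeing the data, these 3 scalings gave 173 to 190 flower-dominant, 229 to 253 bud-dominant and 123 to 156 root-dominant unigenes. No paired analysis was possible because each tissue has 1 library. Depth limits the order of flower, bud and root, since the median number of fragments outside leaf was 30.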

Other observations

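Some described unigenes under the 90% limit, picked after their values were seen, were highest in leaf. TR37791|c0_g1_i1, matched to ABC transporter G family member 11, a family member that in Arabidopsis exports lipids of the cuticle, had 37.9 TPM in leaf, against 4.61 in flower, 0.43 in bud and 0.22 in root, a leaf share of 87.8%. TR40664|c2_g3_i3 was described as similar to an anthocyanin acyltransferase, and its best match was a putative serine carboxypeptidase of Ricinus communis. It had 16.4 TPM in leaf, against 2.25 in flower, 0.93 in bud and 0 in root, a share of 83.7%. TR44616|c0_g1_i1, described as a sulfate, bicarbonate and oxalate exchanger, had 65.8 TPM in leaf, against 9.13 in flower, 11.8 in bud and 0 in root, a share of 75.9%. TR39420|c0_g2_i1, matched to a FUL-like protein, had 80.3 TPM in leaf, against 12.6 in flower, 13.9 in bud and 1.12 in root, a share of 74.4%.

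Of the most abundant leaf unigenes, some lay just under the limit. TR41702|c0_g1_i5 had 11661 TPM in leaf, against 404 in flower, 1230 in bud and 0 in root, a leaf share of 87.7%. TR35939|c1_g1_i1 had 5496 TPM in leaf, against 213 in flower, 556 in bud and 0 in root, also a share of 87.7%. Neither has a description in the tables at hand.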
